A study of Mus musculus with 8 samples.

Results

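The methylation of the B6 allele and of the DBA allele was compared inside the livers of 4 F1 mice. B6 stands for the inbred strain C57BL/6J and DBA for DBA/2J. The F1 mice were 1 female and 1 male of BXD, whose mother was B6 and whose father was DBA, and 1 female and 1 male of DXB, whose mother was DBA and whose father was B6. The 4 parents, 1 female and 1 male of each strain, complete the 8 mice of the series and were used here only for comparison. All 8 mice were 16 weeks old, had been fasted for 16 h and received no treatment. Each mouse gave 1 library of reduced representation bisulfite sequencing (RRBS) of liver DNA, in which MspI cuts at CCGG and the fragments next to the cuts are read. Reads over a SNP had been assigned by the authors to their strain of origin, and only these sorted reads were used for the F1 mice. An autosomal cytosine was kept where each allele had at least 10 reads in at least 3 of the 4 F1 mice. This held for 79813 of the 503041 autosomal cytosines with a sorted read in an F1 mouse (15.9%), namely 13679 in CG, 18639 in CHG and 47495 in CHH, where H is any base but G.

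The alleles of an F1 mouse share the same nuclei and the same proteins. A difference between them therefore stays with the chromosome and is called cis by definition, and a difference between the parent strains that goes beyond it is called trans. In mammalian liver nearly all methylated cytosines lie in CG, where the mark is copied to the new strand after replication, and CGs near active promoters are mostly unmethylated. Bisulfite makes an unmethylated cytosine read as thymine, so that a thymine in a strain's own sequence and an unmethylated cytosine give the same reading, and a cytosine followed by A in one strain can be followed by G in another. The strains' own sequences and the positions of SNPs were not used here. In bulk liver a level between 0 and 100% can be a share of the cells or a share of a cell type, and these cannot be told apart.

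Sorting was even in the F1 mice and clean in 3 of the 4 parents. The F1 libraries held between 218544809 and 845527087 cytosine calls, of which 2.79 to 5.44% were sorted, and 52.3 to 53.4% of the sorted autosomal calls fell to B6. The median cytosine kept had 31 to 74 B6 reads and 29 to 67 DBA reads per mouse. The BXD male was read deepest but covered the fewest of these cytosines (62471, against 75696 to 79449 in the others). The B6 female, DBA female and DBA male had 99.1 to 99.7% of sorted calls on their own strain, while the library labelled B6 male had 16.1% on DBA. Of the markers of liver cells, few were read near their start. The hepatocyte genes Apob, Hnf4a and Fgb lay at 26.9 to 33.0% in all reads of the 8 mice, and the macrophage gene Emr1 at 85.5%. The other lists were mixed, with 3 endothelial genes at 10.7 to 90%, 4 stellate and fibroblast genes at 3.93 to 36.4% and 3 cholangiocyte genes at 2.04 to 70.1%. Too few defining markers were read to check the cell types by this measure.

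The CGs called as different between the alleles fell into a small and a large class. The small class held graded differences, mostly shared with neighbouring CGs. The large class held CGs, mostly single, that were methylated on B6 and read as 0 or nearly so on DBA. A cytosine was called where its adjusted p from edgeR's quasi-likelihood test was below 0.05 and its mean difference within mice was above 50 percentage points. On simulated data, with no limit on the difference, this test recovered 80 of 80 differences of 90 points. It recovered 29 of 60 differences of 60 points and 0 of 60 differences of 30 points. Smaller differences were thus missed more often, so the relative sizes of the classes depend on the test. The sequences of the 4 groups of neighbouring called CGs with the most CGs are shown first, since they carry the first class and part of the second. Each is the plus strand of NCBIM37 (mm9), 5′ to 3′, with the called CGs in capitals. The first lies in a coding exon of Crocc at chr4:140581347-140581439, the second in an intron of Macrod2 at chr2:140599479-140599549, the third in an intron of Pafah2 at chr4:133958390-133958484 and the fourth in an intergenic region at chr11:27346164-27346239, far from Vrk2, the nearest gene.
Crocc: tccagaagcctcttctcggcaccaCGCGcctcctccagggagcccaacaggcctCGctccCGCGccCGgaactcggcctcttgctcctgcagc
Macrod2: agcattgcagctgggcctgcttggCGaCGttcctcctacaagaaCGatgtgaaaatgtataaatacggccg
Pafah2: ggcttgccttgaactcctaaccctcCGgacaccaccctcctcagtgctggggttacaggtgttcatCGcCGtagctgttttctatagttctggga
Vrk2 region: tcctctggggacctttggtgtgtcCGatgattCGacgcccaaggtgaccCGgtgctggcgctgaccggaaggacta

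In the Crocc group, 6 CGs over 43 bases were methylated on B6 and mostly unmethylated on DBA. Crocc encodes rootletin, the fibre protein of the ciliary rootlet. The mean level of the 6 CGs was 87.5% on B6 and 27.8% on DBA in the BXD female, 84.8% and 14.3% in the BXD male, and 89.8% and 16.7% in the DXB male. The DXB female was below the minimum of reads. The alleles did not overlap in any mouse, which calling above 50 points favours, and the difference was 67.8 ± 7.10 points (SD, n = 3). Within the group the DBA allele ran from 1.59% at the second CG to 29.5% at the last. The B6 female gave 84.3% and the DBA parents 13.7% on average. Without the BXD male, the deepest library, 3 of the 6 CGs were no longer called, with their differences still between 52.7 and 66.1 points.

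The Pafah2 group had the opposite direction. Pafah2 encodes an enzyme that hydrolyses platelet-activating factor and oxidised phospholipids. Its 3 called CGs were at 17.9%, 26% and 34.8% on B6 in the BXD female, DXB female and DXB male, and at 89.2%, 98.4% and 88.9% on DBA. The difference was -65.9 ± 10.3 points (n = 3), with parents at 27.6% for B6 and 91.2% for DBA.

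The other groups looked different. In Macrod2, which encodes a hydrolase that removes ADP-ribose from proteins, the B6 allele was at 66.7%, 84.5%, 85.7% and 69.8% in the BXD female, BXD male, DXB female and DXB male, and the DBA allele at 0%, 0%, 4.17% and 0%. Yet the next CGs tested, at 21 and 25 bases from the last called CG, were methylated on both alleles, with 93.9% and 90.2% on B6 and 94.7% and 92.9% on DBA. In the intergenic group the 3 called CGs had 97.6% on B6 and 0.194% on DBA over the 4 mice, while a further CG among them, 14 bases before the last, had 94.6% on B6 and 92.7% on DBA. On the DBA chromosome, methylated and unmethylated readings thus lay within a few bases of each other.

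**Figure D1:**
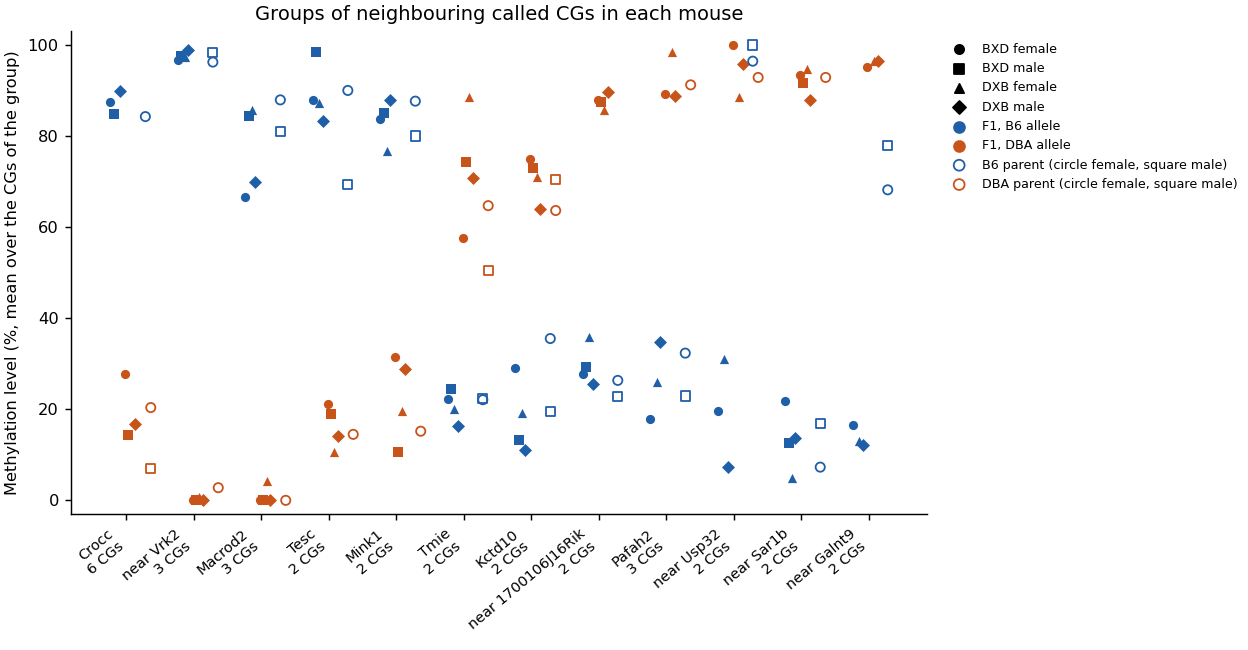
Methylation level (%) of groups of neighbouring called CGs, as the mean over the CGs of the group, for the B6 and DBA alleles of each F1 mouse (filled) and for the parents of each strain (open, own-strain reads). Shown are the 3 largest groups higher on B6, the pairs in Tesc and Mink1 and the 7 groups higher on DBA. Alleles separate in every mouse, which calling above 50 points favours. Parents lie with their own allele except near Usp32 and near Galnt9, where the B6 parents lie far above the B6 allele of the F1 mice.

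Over all 79813 cytosines, 1372 were called (1.72%). Of the 13679 CGs, 770 (5.63%) were higher on B6 and 23 (0.168%) higher on DBA. Outside CG, 148 CHG cytosines (0.794%) and 431 CHH cytosines (0.907%) were called, all of them higher on DBA and none higher on B6. Every call had the same direction in each mouse with enough reads, which calling above 50 points favours. Over the CGs called higher on B6, the median level was 87.7% on B6 and 0.683% on DBA, and the median SD of the difference between mice was 5.37 points. The 4 mice agreed closely at the CGs, as the correlation of their allelic differences over CGs was between 0.851 and 0.885 for each pair of mice, and still between 0.389 and 0.456 over the 12886 CGs that were not called. These correlations are descriptions over CGs, which share fragments and libraries.

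Mean levels over each context differed by few points between the alleles, though outside CG the levels themselves were low. The called cytosines held most of the difference. The CG level was 57% ± 1.40 on B6 and 52.2% ± 1.39 on DBA (mean ± SD, n = 4 mice). The difference was 4.76 points in the BXD female, 4.89 in the BXD male, 4.92 in the DXB female and 4.60 in the DXB male. All mice had the same direction, with an exact sign-flip permutation p of 0.125 (two-sided), the smallest that 4 mice allow. Outside CG the DBA allele was higher, with 0.813% ± 0.282 on B6 against 1.53% ± 0.271 on DBA in CHG and 0.827% ± 0.269 against 1.64% ± 0.288 in CHH, again with the exact permutation p at 0.125 for each. Leaving out the called cytosines, which by construction removes the largest differences, left 0.257 ± 0.123 points in CG, -0.0323 ± 0.0356 in CHG and -0.0590 ± 0.0188 in CHH.

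**Figure D2:**
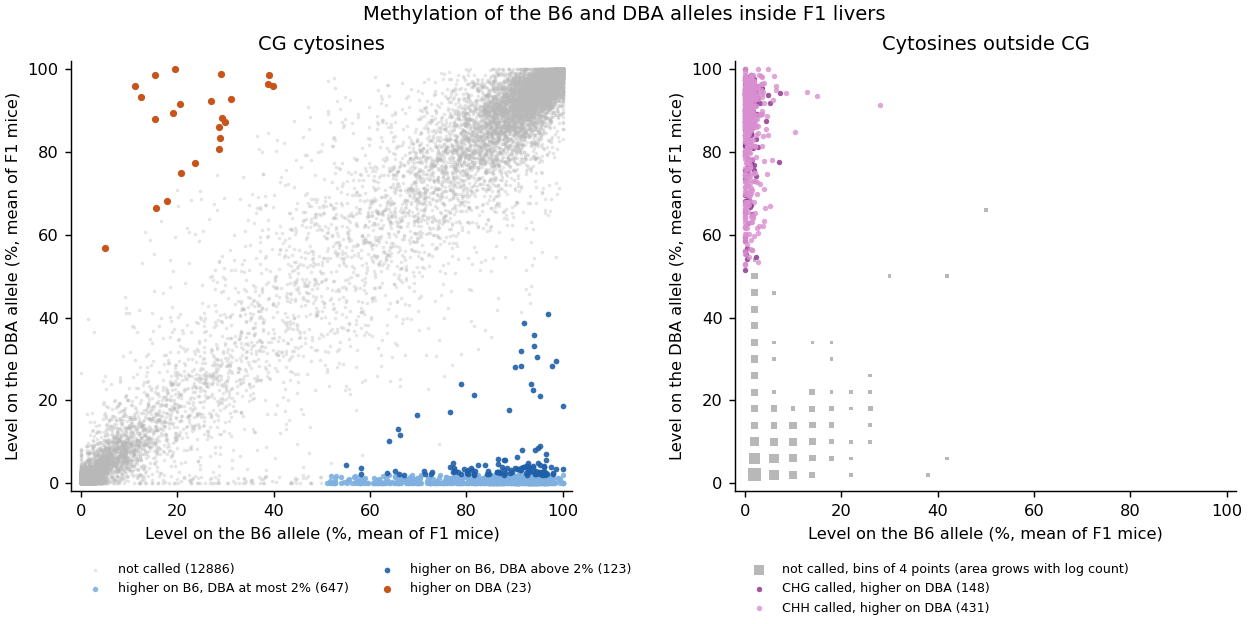
Methylation level (%) on the B6 allele (x axis) and the DBA allele (y axis), each the mean of the F1 mice, for CGs on the left and cytosines outside CG on the right. The CGs called higher on B6 lie along the x axis, 647 of them with DBA at 2% or less, the 23 called higher on DBA lie between 5.0% and 39.8% on B6, and the calls outside CG lie along the y axis.

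The large class consisted of CGs that were read as unmethylated on DBA. Of the 770 CGs called higher on B6, 647 (84.0%) had a DBA level of at most 2%, and 266 (34.5%) had 0% on DBA in every mouse. On the other side, none of the 23 CGs called higher on DBA had a B6 level of at most 2%, and 22 of them had over 10%. The middle of the range was even. Among CGs over 20 points apart with an adjusted p below 0.05, of which 878 (6.42% of CGs) were higher on B6 and 73 (0.534%) higher on DBA, those with the lower allele above 10% numbered 60 higher on B6 and 67 higher on DBA. Their number depended on the fit: with CGs fitted without the other contexts, an alternative added after the data had been seen, 990 and 179 CGs were over 20 points apart, and 146 and 169 of these had the lower allele above 10%. On simulated data that fit recovered 17 of 60 differences of 30 points, against 0 of 60 with all contexts fitted together. It also made 5 false calls, against 0.

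The low DBA readings stood alone among their neighbours. Of the 647 CGs, 645 had another CG tested within 50 bases, and in 65 of these (10.1%) a neighbour differed by over 20 points in the same direction. The median difference of the neighbours was 1.65 points, with quartiles of -0.926 and 5.83. Among CGs that were not called but had an allele at 50% or more, the share was 18% (989 of 5488). Called CGs count as neighbours there, and in 739 of the 989 a neighbour differed by over 50 points. That share is therefore no background free of the calls. Over all 123 CGs called higher on B6 with DBA above 2% it was 15.1% (18 of 119), with a median of 1.65 points. At the 22 of them with DBA above 10%, a neighbour differed by over 20 points in the same direction in 13 of the 18 that had one (72.2%), and at the 23 called higher on DBA in 18 of 20 (90%). The median neighbour there differed by 56.0 and 56.5 points. Of the 22, 5 were in Crocc, and without Crocc, an alternative added after seeing the data, the count was 8 of 13 (61.5%) and the median 25.5 points. In all, 712 of the 738 groups higher on B6 held a single CG, against 8 of the 15 higher on DBA. The groups were defined by distance, at most 50 bases between called CGs.

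**Figure D3:**
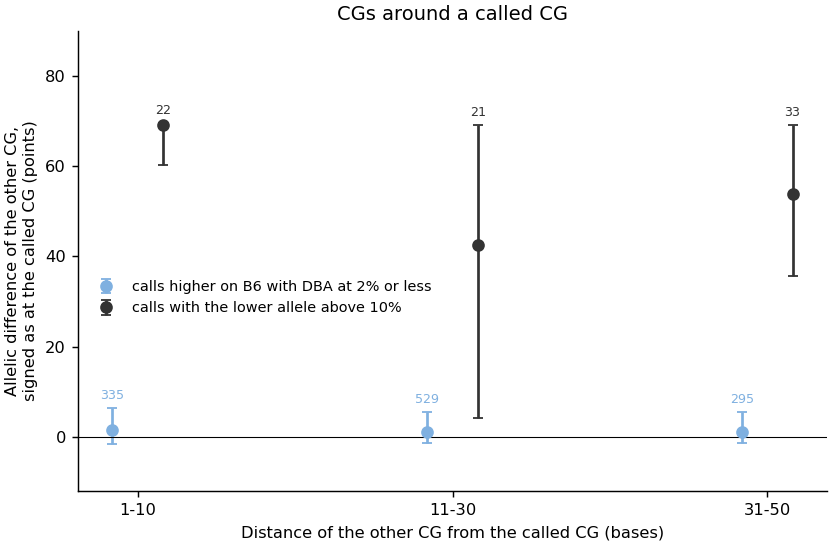
Allelic difference in points of other CGs within 50 bases of a called CG, signed as at the called CG, by distance in bases. Points are medians and bars are quartiles. Numbers are pairs of a called CG and another CG, so that a CG near several calls is counted several times. Around the calls with DBA at 2% or less the medians lie between 1.0 and 1.48 points. Around the calls with the lower allele above 10% they lie between 42.6 and 69.1 points. There the 6 CGs of the Crocc group gave 11 of the 22, 5 of the 21 and 9 of the 33 pairs. Without Crocc these medians are 62.2, 27.3 and 52.4 points from the nearest to the farthest bin.

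Windows from genes with several such calls show the pattern at the level of the base. The genes were among the 10 with the most CG calls higher on B6, and the CG in capitals in each is the call. They lie in introns of 9830001H06Rik at chr2:156854989-156855070 (plus strand), of Mctp1, which encodes a calcium-binding membrane protein, at chr13:76927505-76927586 (minus strand) and of Pik3cb, a catalytic subunit of phosphoinositide 3-kinase, at chr9:98987497-98987578 (minus strand).
9830001H06Rik: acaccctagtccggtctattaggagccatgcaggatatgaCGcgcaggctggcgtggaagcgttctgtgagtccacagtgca
Mctp1: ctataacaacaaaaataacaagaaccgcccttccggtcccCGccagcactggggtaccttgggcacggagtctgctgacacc
Pik3cb: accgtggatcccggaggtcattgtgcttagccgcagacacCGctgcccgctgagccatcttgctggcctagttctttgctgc

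In 9830001H06Rik the CG in capitals had 92.5%, 96.1%, 89.5% and 94.7% on B6 in the BXD female, BXD male, DXB female and DXB male and 0% on DBA in each. The CG that follows it by 2 bases had 97.3% on B6 and 90.7% on DBA. In Pik3cb the call had 94.1 to 95.7% on B6 over the 4 mice and 0% on DBA, and the 3 other CGs tested in the window had between 93.6 and 96.7% on B6 and between 96.8 and 97.9% on DBA. In Mctp1 the call had 94.1 to 97.4% against 0%, a CG 7 bases away was at 100% on both alleles, and the other CG tested had 91.3% on B6 and 71.9% on DBA. Each mouse therefore showed a methylated and an unmethylated reading side by side on its DBA chromosome.

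These calls rarely lay in the cutting site of the enzyme. Of all CGs tested with a level of at least 50% on an allele, 57% lay inside CCGG, the sequence that MspI cuts. Among the 647 CGs called higher on B6 with DBA at most 2%, 4 did (0.618%). Where the DBA allele was above 10% the share was 45.5% (10 of 22 CGs), and among the 23 CGs called higher on DBA it was 60.9% (14 CGs). Whether the strains differ in sequence at these CGs was not tested.

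Outside CG the direction was turned. The 579 calls, of 66134 cytosines tested, had a median level of 0.754% on B6 and 88.9% on DBA, and 492 of them (85.0%) had at most 2% on B6. The base after the cytosine in the reference, which is the B6 sequence, was A in 462 of them (79.8%), T in 64 (11.1%) and C in 53 (9.15%). Over all cytosines tested outside CG these shares were 34.0%, 35.5% and 30.5%. Put the other way, 2.05% of the cytosines before A were called, against 0.272% before T and 0.263% before C. CHG and CHH calls were alike in this, with 83.8% and 78.4% before A. All 579 had a CG tested within 50 bases, and those CGs had a median level of 90.3% on B6 and 93.0% on DBA. The level of the call on DBA followed that of the CGs around it (Pearson's r = 0.534 and Spearman's rho = 0.502 over the 579 calls, which share reads with those CGs).

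Genes are named here by their count of such calls, not by the share called. Hspg2, which encodes perlecan, a heparan sulphate proteoglycan of basement membranes, had 5 of its 172 cytosines tested outside CG called. Grhl1, Nomo1, Zbtb7c and Anks1b had 3 each, of 41, 101, 111 and 42 tested. Over all genes and intergenic DNA it was 579 of 66134. The cytosine of largest difference in Hspg2, Grhl1, Nomo1 and Anks1b is shown with 20 bases on each side on its own strand, 5′ to 3′, and the cytosine and the base after it are in capitals. The regions are introns, at chr4:137098922-137098962 on the minus strand for Hspg2, at chr12:25262699-25262739 for Grhl1, an epithelial transcription factor, at chr7:53294547-53294587 for Nomo1, a protein of the endoplasmic reticulum, and at chr10:90165850-90165890 for Anks1b, a scaffold protein with ankyrin repeats, the last 3 on the plus strand.
Hspg2: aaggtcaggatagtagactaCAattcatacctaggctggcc
Grhl1: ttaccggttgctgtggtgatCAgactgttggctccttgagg
Nomo1: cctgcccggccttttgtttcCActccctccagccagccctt
Anks1b: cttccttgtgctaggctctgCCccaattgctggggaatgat

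The Grhl1 cytosine had 95%, 93.9%, 92.7% and 95.9% on DBA in the BXD female, BXD male, DXB female and DXB male, against a mean of 1.29% on B6. The Nomo1 cytosine had 100%, 92.7%, 94.3% and 92.9% on DBA against 2.36%. The Anks1b cytosine, which is followed by C, had 96.6%, 97.2%, 98.4% and 95.2% on DBA against 0.642%. The DBA parents had 85.7%, 100% and 93.5% at these 3 cytosines and the B6 parents at most 1.22%. In Hspg2, 2 of the 5 calls were less even and lowest in the BXD male, with 62.5%, 16.7%, 70.8% and 76.7% on DBA at the first and 86.8%, 47.1%, 82.8% and 92.7% at the second. At the first the DBA male had 10%, and the call was lost without the DXB male (-48.5 points). Both classes of call can lie next to each other. In an intron of Rtkn2, 3 calls fell within 25 bases at chr10:67495103-67495167 (plus strand, called cytosines and the base after them in capitals).
Rtkn2: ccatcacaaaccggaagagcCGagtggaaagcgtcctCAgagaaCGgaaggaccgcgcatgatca

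The first and the last of these, both CGs, had 95.7% and 96.4% on B6 and 0.735% and 0% on DBA. The cytosine between them, before A, had 1.27% on B6 and 98% on DBA. So within 1 stretch of DNA the B6 allele was read as methylated at both CGs and the DBA allele at the cytosine between them.

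Fewer calls fell in promoters, where CGs had little methylation on either allele. Of the 2550 CGs tested between 1000 bases before and 500 after a gene start, 9 were called (0.353%), against 71 of 1217 in coding exons (5.83%), 30 of 636 in other exons (4.72%), 322 of 4691 in introns (6.86%) and 361 of 4585 in intergenic DNA (7.87%). The mean B6 level of promoter CGs was 8.19%, against 66.9% in introns and 73% in intergenic DNA. Among CGs with at least 50% on an allele the shares were closer, with 6.47% of 139 in promoters and 8.15 to 9.55% in the other parts. Calls lay on all 19 autosomes, with 4.18% (chromosome 18) to 7.5% (chromosome 16) of the CGs.

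Nearly all of the 23 CGs higher on DBA were graded. They had a median of 23.7% on B6 and 89.5% on DBA, and 15 of them lay in 7 groups of at least 2 CGs. In Kctd10, which encodes an adaptor of a cullin ubiquitin ligase, 2 CGs had 29.2%, 13.2%, 19.2% and 11% on B6 and 75%, 73%, 71.1% and 64.0% on DBA in the BXD female, BXD male, DXB female and DXB male, while another CG of the gene was called higher on B6 (79.3 ± 7.13 points). In Tmie, which encodes a membrane protein of the hair cells of the ear, 2 CGs had 16.4 to 24.5% on B6 and 57.7 to 88.5% on DBA. Near Sar1b, 4621 bases from the gene of a coat GTPase that serves lipoprotein export, 2 CGs had 13.2% on B6 and 92.0% on DBA. Single CGs in Gsr, which encodes glutathione reductase, and in Sec23b, which encodes a subunit of the COPII coat, had 38.9% and 38.8% on B6 and 98.7% and 96.5% on DBA. In each of these the alleles did not overlap in any mouse, which calling above 50 points favours. Some calls ended when a mouse was left out. Sec23b, with 3 mice, lost its call without the BXD female (-53.7 points) or the DXB male (-56.0). Both CGs of Kctd10 lost it without the BXD male (-49.4 and -51.1), and 1 each without the BXD female (-46.4) and the DXB male (-48.7). Both CGs of Tmie lost it without the BXD male (-48.9 and -56.6), the DXB female (-45.6 and -47.6) or the DXB male (-48.8 and -53.7).

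Unequal reads went with 5 of the 23. Over all CGs, B6 held a median of 51.4% of the sorted reads, and over 80% at 12 CGs (0.0877%). Of the CGs called higher on DBA, 5 were among them, at Iffo2, near Usp32 and near Galnt9, each with the excess on its lower allele. The matching case for the 647 CGs with DBA at most 2%, a B6 share below 20%, held for 3 of them, of 10 among all CGs. At the Iffo2 CG, in an intron of a gene of the intermediate filament family (chr4:139098652), the DXB female had 221 B6 reads and 15 DBA reads. There B6 was at 9.26%, 94.1%, 4.98% and 8.12% in the BXD female, BXD male, DXB female and DXB male, and DBA at 95.2%, 100%, 100% and 100%. The BXD male, which had 17 B6 and 13 DBA reads at this CG, stood apart from the other three with a difference of -5.88 points. Near Usp32 the B6 allele had 19.3% on average over 2 CGs and 83.2% of the reads, and near Galnt9 13.9% and 85.5%. The part of the uneven reads in these differences was not tested.

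Gene means were compared next. The mean level over the CGs covered in all 4 mice was compared for the 1182 genes with at least 3 such CGs in the gene or the 2000 bases before it, with limma on the paired differences, and a gene was called at an adjusted p below 0.05 and over 20 points. Of these genes, 111 (9.39%) were higher on B6 and 5 (0.423%) higher on DBA. In 86 of the 116, a single CG differed by over 20 points in the direction of the gene, and in 30 at least 2 did. Without CGs at 0% on an allele in every mouse, 91 of 932 genes were called, 84 higher on B6 and 7 higher on DBA. With at least 5 CGs per gene, 21 of 588 were called, 17 of them higher on B6. Leaving out CGs over 20 points apart with the lower allele at most 2%, which by construction removes differences, left 21 of 1112, 13 higher on B6 and 8 higher on DBA.

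Among the genes with the largest differences on the B6 side were Polr1a, Gm16601, Tesc, Sec31b and Eltd1. Polr1a encodes the largest subunit of RNA polymerase I, and Gm16601 lies within it and has the same CGs. The gene level on Polr1a was 98.6%, 98.3%, 100% and 92.2% on B6 and 39.6%, 36.8%, 33.3% and 27.1% on DBA in the BXD female, BXD male, DXB female and DXB male (63.0 ± 3.48 points, limma adjusted p = 2.14e-05). It rests on 2 called CGs, at 8.88% and 0% on DBA, and another CG at 93.8%. Tesc, which encodes the calcium-binding protein tescalcin, was higher on B6 at all 3 of its CGs, by 86.8, 34.0 and 59.4 points (60.1 ± 6.08 over the gene, limma adjusted p = 3.54e-05). Its alleles were at 66.7 to 80.2% on B6 and 11.1 to 19.3% on DBA.

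In Sec31b, which encodes a COPII coat protein, and in Eltd1, a receptor of vascular cells, 1 CG read as 1.16% and 1.04% on DBA stood beside CGs whose alleles were within 23 points. Their gene differences were 42.3 ± 2.73 and 39.1 ± 4.48 points. Mink1, which encodes a serine/threonine kinase, had 5 of 8 CGs over 20 points higher on B6 (35.3 ± 4.95 points, limma adjusted p = 0.000113).

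In the 5 genes higher on DBA, the CGs over 20 points lower on B6 had B6 levels of 2.70 to 55.9%. Sfn, which encodes the 14-3-3 sigma protein of epithelial cells, had 5 CGs tested in its coding exon at chr4:133157365-133157452 (minus strand). The 4 CGs in capitals were over 20 points lower on B6, and the CG among them in lower case was 18.3 points higher.
Sfn: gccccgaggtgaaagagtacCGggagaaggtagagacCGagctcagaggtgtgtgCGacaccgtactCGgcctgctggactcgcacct

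The mean level over the 5 CGs was 19.1%, 13.3%, 16.9% and 16.4% on B6 and 47.7%, 37.3%, 37.7% and 56.2% on DBA in the BXD female, BXD male, DXB female and DXB male. The difference was -28.3 ± 8.30 points (limma adjusted p = 0.00165), and the parents gave 15.3% for B6 and 46.1% for DBA. Tmie differed by -28.9 ± 5.87 points over 5 CGs and Gipc1, which encodes a PDZ adaptor protein, by -22.7 ± 7.13 points over 5 CGs. Both genes lost the call with reads pooled over the CGs (-18.5 and -8.54 points), and Gipc1 also without the BXD female (-19.3 points). The neighbours Sla2, an adaptor protein of lymphocytes, and 1110008F13Rik share 3 CGs, which differed by -21.8 ± 0.813 points. No CG of Sfn, Gipc1 or Sla2 passed 50 points, so none was called alone. In Sfn the 4 CGs lower on B6 each passed the adjusted p of edgeR, and in Gipc1 no CG did. The CGs of Sla2 differed by -2.13, -17.5 and -45.9 points, so its mean rests mostly on 1 CG.

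**Figure D4:**
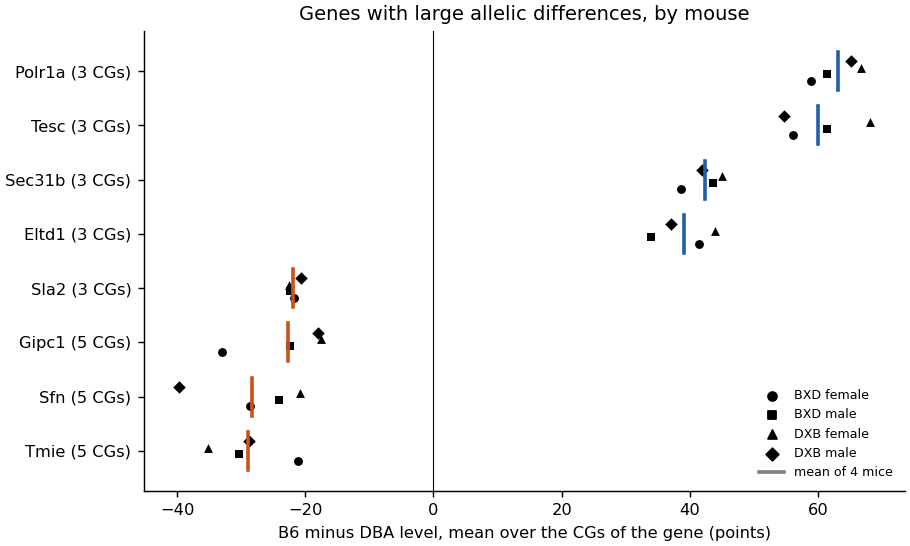
Difference in points between the B6 and the DBA allele of each F1 mouse, as the mean over a gene's CGs, for 8 genes from among those with the largest differences on each side; the bar is the mean of 4 mice. Gm16601 and 1110008F13Rik are left out because they share their CGs with Polr1a and Sla2. The 4 mice lie on the same side of 0 in each of the 8 genes, which choosing genes by their difference favours.

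By number of CG calls higher on B6 the order was another one. Crocc had 7 CG calls among 16 CGs tested. With 3 calls each followed Cit (of 15 CGs), Csmd2 (of 9), Macrod2 (of 10), Mink1 (of 13) and 9830001H06Rik (of 11). Rtkn2 (of 22), Mctp1 (of 15), Kif14 (of 4) and Pik3cb (of 6) had 2 each. Over all CGs tested the share was 5.63%, and this order is by count, not by share. Cit encodes citron kinase, which acts in cytokinesis, and Kif14 a kinesin motor of the same step. The gene mean of Crocc over its 7 CGs in all 4 mice was -12.1 ± 4.19 points, in the direction opposite to its group of 6, whose CGs were not among them. Without the DXB female, whose reads had kept that group out, the gene mean was 24.1 points.

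Genes of liver metabolism held few tested CGs. Of the 25 CGs in or near genes of xenobiotic metabolism 2 were called (8.0%), of 29 in genes of lipid, bile acid and glucose metabolism 2 (6.90%), and of 189 in tandem gene families 5 (2.65%), against 5.8% of all CGs. Imprinted genes had 1 call in 13 CGs (7.69%). No CG was called in complement and coagulation genes (8 CGs), in hepatocyte transcription factors (15 CGs) or in DNA methylation enzymes (4 CGs). The median CG differed by between -1.95 and 1.0 points in these 7 lists, and by 0.0819 over all CGs.

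The CG calls in these lists were single CGs with a DBA level of at most 3.45%. In Adh6a, an alcohol dehydrogenase gene, a CG of a coding exon had 97.5% on B6 and 0% on DBA, and in Cyp26c1, whose product degrades retinoic acid, an intron CG had 88.2% and 0.966%. Lipc, the hepatic lipase gene, had 90.1% against 1.61% and Lrp1, a receptor for lipoprotein remnants, 68.3% against 1.39%, a call lost without the BXD female (58.3 points). Outside CG, Abcg8, part of the sterol transporter of the canalicular membrane, had a CHG cytosine at 1.25% on B6 and 91.0% on DBA, and Pcx, the pyruvate carboxylase gene, a CHH cytosine at 0% and 62.0%. In the imprinted gene H13 the call was higher on B6 in both crosses, with 69.0 and 86.1 points in BXD and 68.9 and 42.1 points in DXB. In the tandem families the CG calls were in Zfp84, Zfp260, Zfp652, Serpina3c and Vmn2r104, with 51.8 to 87.0 points (Zfp84 was lost without the BXD male, 48.2 points), and the calls outside CG in Zfp661, Pcdhgc5 and Zfp532. Outside CG these were 3 of 750 cytosines tested. In the lipid, bile acid and glucose genes it was 2 of 135, and over all cytosines outside CG 579 of 66134. In the gene test, where 9.39% of all genes were called higher on B6, the aldehyde oxidase gene Aox3l1 was called among 4 xenobiotic genes (32.7 ± 7.49 points, limma adjusted p = 0.000619), with 3 of its 4 CGs over 20 points apart and no CG called alone. Adh6a, another of these 4, and Zfp260, 1 of 21 genes of the tandem families, were called as well (26.1 ± 3.71 and 25.9 ± 2.20 points), but each rested on the called CG given above and is no further evidence. The other CGs of Adh6a differed by 2.29 points on average, and those of Zfp260 by 4.44.

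The difference between the parent strains was then compared with that between the alleles at the same CGs, which asks how much of it is cis. A thymine in a strain's own sequence would read alike in the parents and in the F1 mice. Where 1 allele read as 0 or nearly so, the comparison therefore cannot tell cis methylation from sequence, which was not tested. Of the calls compared below, 636 were higher on B6 with DBA at most 2%. Of the 793 called CGs, 776 had at least 10 own-strain reads in a parent of each strain, and in 748 of them (96.4%) the parents differed by over 50 points in the same direction. This held for 738 of 757 calls higher on B6 (97.5%) and for 10 of 19 higher on DBA (52.6%). The mean difference, signed by allele, was 82.2 points on the alleles and 82.2 points in the parents. The calls higher on B6 had 82.7 and 83.1 points over 757 CGs, and those higher on DBA 61.8 and 46.3 points over 19. Of these 19, 17 had the same direction in the parents, and the medians were 57.7 and 52.0 points, close to the limit of 50. Parents were under 20 points apart at 3 of them, at Iffo2 and near Usp32, where the sorted reads were uneven. Calls outside CG behaved alike, with 554 of 560 over 50 points in the parents. Graded CGs, 20 to 50 points apart past the adjusted p with both alleles above 2%, were less close. The 46 higher on B6 had 36.6 points on the alleles and 34.9 in the parents, and the 47 higher on DBA 34.0 and 31.3. The 2 differences lay within 10 points of each other at 47.8% and 55.3% of these CGs, against 86.7% of the called CGs. Counting error is larger at middle levels, and its part in this was not tested. Over all 13316 CGs with parents the correlation of the allelic and parental differences was r = 0.913 (rho = 0.453), and over the 12540 not called r = 0.560, given as descriptions over CGs.

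**Figure D5:**
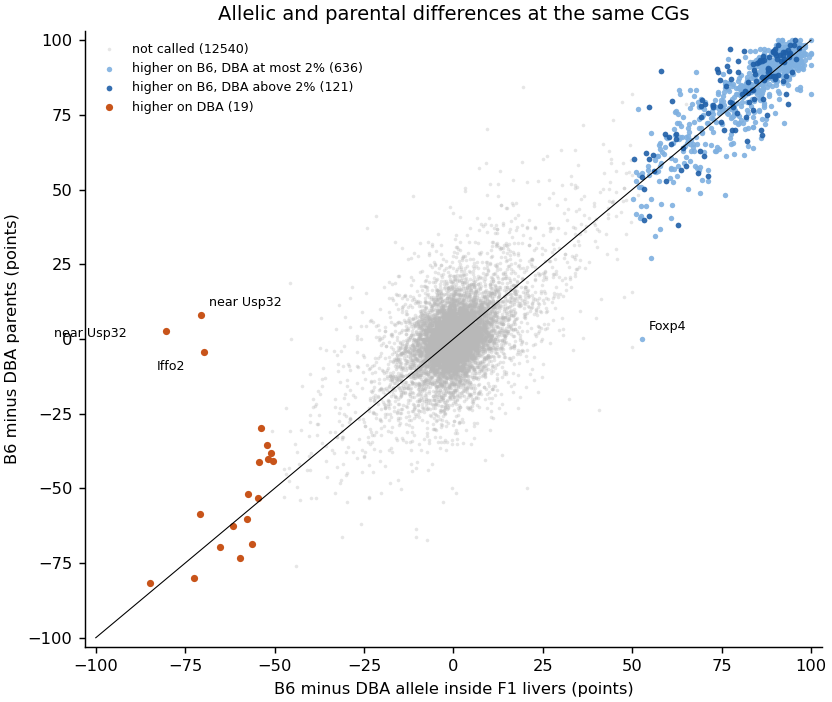
Difference in points between B6 and DBA alleles inside F1 livers (x axis) and between B6 and DBA parents (y axis, own-strain reads, means of the parents with 10 reads) at 13316 CGs; the line marks equal values. Of the 776 calls 97.8% lie within 20 points of the line, and of the 19 higher on DBA 78.9%; the 4 named CGs are those at which the parents differed by less than 20 points.

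No CG had a parental difference beyond the allelic one that passed the test. In 4008 CGs with 10 reads in all 4 parents, limma called 0 (0% called) at an adjusted p below 0.05 and over 20 points, with 153 at an unadjusted p below 0.05, and edgeR on the counts also called 0, with 82. The remainder, the parental minus the allelic difference, was within 10 points at 88.1% of these CGs and within 20 points at 97.5%. Its median standard error was 4.19 points. On simulated data with the same number of mice this test missed most remainders larger than its limit, so 0 calls do not show that none exist. At the 173 called CGs among them the alleles differed by 81.7 points and the parents by 80.6 points on average. Of these 173, 94.8% had parents over 50 points apart in the same direction. With all reads of the parents in place of own-strain reads, 77.3% of 216 called CGs had parents over 50 points apart, and 95.6% of 225 when the library labelled B6 male was left out of these.

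At 4 called CGs the parents did not differ by 20 points. They were the Iffo2 CG (B6 female 93.2%, DBA female 97.6%), the pair near Usp32, at which the B6 parents had 98.2% where the B6 allele had 19.3%, and a CG in an intron of Foxp4, a forkhead transcription factor gene (chr17:48059260). In Foxp4 the B6 allele had 43.5%, 56.3% and 58.3% in the BXD female, DXB female and DXB male, and DBA 0% in each, while the B6 female and the DBA female had 0% in 23 and 60 reads. Near Galnt9, where the DBA parents had fewer than 10 reads, the B6 parents had 73.1% and the B6 allele 13.9%. These CGs were picked out for this pattern, and none had reads enough in all 4 parents to enter the test of the remainder.

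No difference between the reciprocal crosses passed the test. BXD mice carry B6 as the mother's allele and DXB mice as the father's. No cytosine of the 56517 covered in all 4 mice was called for the difference between the crosses by edgeR (0% called, 14 at an unadjusted p below 0.05). Limma also called 0, with 3017 at an unadjusted p below 0.05, but with 2 mice per cross it missed nearly all of the large differences put into simulated data, which edgeR recovered, so its count says nothing here. Over 9661 CGs the median size of that difference was 3.43 points, 95% of CGs were below 16.2 points, and the largest was 49.0 points. Among the 965 calls covered in all 4 mice the median was 3.62 points. With 2 mice in each cross, how small a difference edgeR could call was not tested.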

How the data were processed

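Mice were grouped by the strain and sex in their labels. The authors deposited, for each mouse, methylated and unmethylated raw counts per cytosine for reads sorted to B6, to DBA, without a SNP or unknown, and the level as a fraction. Per the labels and the study's methods, RRBS reads were aligned to mm9 with BS Seeker, unique positions were kept, and SNPs were called from pooled reads with C/T SNPs excluded. Neither the BS Seeker version nor any removal of duplicates is stated there. The authors also deposited tables of their own comparisons (mean levels, differences, p-values), which were not used; 12 of their columns hold levels or bounds of single mice. The reads and positions of SNPs were not analysed here.

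Levels were percentages of the deposited counts, each strand of a CG being 1 cytosine. Reads are PCR copies without molecular tags, so precision from read depth covers counting error only. edgeR 4.0.16 fitted methylated and unmethylated counts of each allele with a term for each library and each mouse's own methylation, and limma 3.58.1 fitted levels, in R 4.3.3. Each allele pair came from 1 mouse, so the mouse was the block. Parents and F1 mice have 1 animal per sex and group. The p-values of limma measure the spread between these libraries. Those of edgeR rest on read counts and on a spread shared over cytosines, so a cytosine uneven between mice can pass. The Iffo2 CG, with an SD of 42.7 points, had an edgeR adjusted p of 2.37e-14. Benjamini-Hochberg adjustment covered all cytosines or genes tested. A mouse under 10 reads on an allele was left out at that cytosine. Genes (GENCODE) and sequences are those of NCBIM37, counted from 1; context and base in the reference matched those deposited at all cytosines used. Figures were made with matplotlib 3.10.9.

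The members, gene lists and tests were chosen with earlier results of these data known. Named genes were the 10 and 6 genes with the most CG calls higher on B6 and DBA, the 6 with the most calls outside CG, up to 6 largest on each side of the gene test, called members of the lists and the 4 largest groups, and CGs called for the parental remainder, of which there were 0. Features named outside this rule (Rtkn2 and Mink1 details, pairs near Usp32, Sar1b and Galnt9, and the Foxp4 CG) were chosen after their values were seen. Some genes that this rule names are not reported here. Scripts were tested on simulated data.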

Additional observations from a re-analysis of the deposited data

Results flagged for a closer look

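Of 66 values with all 4 F1 mice that were checked for a mouse apart from the rest, 2 had one. Chance marks about 1 in 20 such groups. Both were the BXD male. At the Iffo2 CG its allelic difference was -5.88 points, against -86.0, -95.0 and -91.9 in the others. At the promoter CG of Vmn2r104 it was 82.6 points, against 87.0 to 87.5.

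With a minimum of 5 reads, 3 CGs in an intron of Snrpn, an imprinted gene, differed between the crosses. The allelic difference in BXD minus that in DXB was 177.4 points at chr7:67150073, 183.5 at chr7:67150086 and 175.4 at chr7:67150115 (edgeR adjusted p = 5.55e-05, 1.32e-05 and 6.25e-05). B6 was higher by 67.5 to 93.8 points in the BXD mice and differed by -85.7 to -100 points in the DXB mice. These CGs had fewer than 10 reads on an allele in 3 of the 4 mice and are not among the cytosines compared above.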

How the results depend on the processing

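The 1372 calls became 1375 with no replicate block, 1372 of them shared, and 1353 to 1363 without any 1 mouse, of which 1347 to 1352 were shared. The block changed no call of a named cytosine. With a neighbouring call required, 87 were left, 58 of CG higher on B6, 15 higher on DBA and 14 outside CG. CG calls higher on B6 numbered 505 without cytosines at 0% on an allele and 512 at 20 reads. CG calls higher on DBA numbered 73 and 4 above 20 and 80 points, 9 with limma, 11 at 20 reads, 14 in all 4 mice, 16 to 20 without 1 mouse, and 179 above 20 points with CGs fitted on their own (990 higher on B6), a fit added after seeing the data. Outside CG, 1 cytosine was higher on B6 above 20 points, in Dvl2. The mean CG difference was 4.51 points at 5 reads and 5.37 with pooled reads, which gave -0.636 in CHG and -0.869 in CHH. The cross term had 3 calls at 5 reads, also with CGs on their own.

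Genes called were 21 with 5 CGs (17 higher on B6), 187 with 2 CGs (175 and 12), 298 with no limit on size (258 and 40), 4 above 50 points (4 and 0, Polr1a, Gm16601 and Tesc among them), 21 without CGs over 20 points apart whose lower allele was at most 2% (13 and 8), a fall that removing differing CGs builds in, and 3 higher on DBA with pooled reads (Sfn, Sla2 and 1110008F13Rik). With 1 mouse left out, the gene mean of Crocc ranged from -12.4 without the BXD female to 24.1 points without the DXB female, and with pooled reads it was -15.2. The parental remainder had 0 calls except on removal of the DBA female (2 calls, Ring1 and near Cdc42ep3) or of the DBA male (1 call, Asxl1). Parents over 50 points apart were 77.3% with all reads and 98.6% at 20 reads, against 94.8% of the 173 calls covered in all 4 parents. Of 718 further values of named cytosines 18 lost the call, each with 1 mouse left out, 8 of them without the BXD male. Of 318 values of named genes 20 lost and 13 gained it. Causes were not tested.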
